A study of Solanum lycopersicum with 36 samples.

Results

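The miR168 family of tomato leaf was described across combined stress, heat, drought and control. Its members were every sequence of the small RNA table whose name holds miR168 followed by no further digit, each sequence taken once, which gave 7 of 765 sequences. The same names picked 4 of 574 cleavage sites from the degradome lists, the degradome being a library of 5′ ends of cut mRNA. The study grew seedlings of the wild type cultivar 'Jinlingmeiyu', described in its methods as not tolerant to these stresses, and withheld water from part of them at an age of 24 days. After 3 days the plants were kept for 48 h at a day temperature of 38 °C without water (combination), 38 °C with water (heat), 26 °C without water (drought) or 26 °C with water (control). The first fully expanded leaf was taken at 36 h for sequencing, with 3 biological replicates per treatment in each assay.

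In plants miR168 limits its own partner protein. The 5p strand is the guide, which is loaded into ARGONAUTE1 (AGO1), the slicer protein that most miRNAs use, and directs the cutting of AGO1 mRNA. The 3p strand is the passenger, which is usually discarded when the duplex is opened, so that its level is often far below that of the guide.

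The sequences are shown because guide and passenger share no seed and because the tomato 3p forms differ by 1 base. Bases 2 to 8 (the seed) are in capitals, and T stands for U, as deposited. The guide forms with 1 shared seed were as follows.
sly-miR168a-5p_R+1: tCGCTTGGtgcaggtcgggacc
ath-miR168a-5p: tCGCTTGGtgcaggtcgggaa
The third 5p form has 24 nt. It carries 3 extra bases at its 5′ end and therefore another seed.
atr-miR168_L+3_1ss24AC: aTCTCGCTtggtgcaggtcgggac
Of the 4 passenger forms, 3 shared a seed and sly-miR168a-3p had its own.
sly-miR168a-3p: cCTGCCTTgcatcaactgaat
sly-miR168b-3p: cCCGCCTTgcatcaactgaat
ath-miR168a-3p_R+1: cCCGCCTTgcatcaactgaatt
ath-miR168a-3p_R+1_1ss20AT: cCCGCCTTgcatcaactgattt

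Counted from the 5′ end, sly-miR168a-3p and sly-miR168b-3p differed by T3C, which lies inside the seed. The form ath-miR168a-3p_R+1 was sly-miR168b-3p with 1 base added at its 3′ end, and the form named 1ss20AT differed from it by A20T. Set against the first 21 bases of the guide without gaps, sly-miR168b-3p formed 14 Watson-Crick and 3 G:U pairs over 19 facing positions, and sly-miR168a-3p formed 13 and 4. The prefix sly names tomato, whereas ath and atr mark sequences matched to entries of other plants. The guide sly-miR168a-5p_R+1 was listed on 2 lines with the same values, 1 for each hairpin, so its reads cannot be assigned to MIR168a or MIR168b. RefSeq (assembly SLM_r2.1) places MIR168a on chromosome 8 and MIR168b on chromosome 12.

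The sequences sly-miR168a-5p (listed as sly-miR168a-5p_R+1, with 1 base more at its 3′ end than the database entry), sly-miR168b-3p and sly-miR168a-3p carried nearly all listed miR168 reads. Among the listed forms the passenger was not the rarer strand over the 12 libraries. The first 21 bases of sly-miR168a-5p_R+1 were not listed as a sequence of their own, so guide totals, shares and ratios hold only the listed forms. Averaged over the 12 libraries, sly-miR168b-3p had 5087 normalized reads (rank 29 of 765), sly-miR168a-5p_R+1 had 4773 (rank 33) and sly-miR168a-3p had 1569 (rank 57). The other 4 forms averaged between 10.7 and 118.6. Values were the authors' normalized reads, with 961770 to 1208899 listed per library. The number of reads behind a value in a single library was not recovered. Leaves were sequenced in bulk, so fewer cells with miR168 and less miR168 per cell cannot be told apart, and leaf marker genes were not checked because no mRNA level was analysed here.

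The family fell at high temperature. It made up 0.741% ± 0.036 of all normalized reads at combination, 0.386% ± 0.026 at heat, 1.28% ± 0.08 at drought and 1.80% ± 0.22 at control (SD, n = 3 each). The lowest level was thus at heat alone, and combination lay between heat and the treatments at 26 °C. No library at 38 °C reached the lowest library at 26 °C, with a highest share of 0.783% against a lowest of 1.19%.

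**Figure D1:**
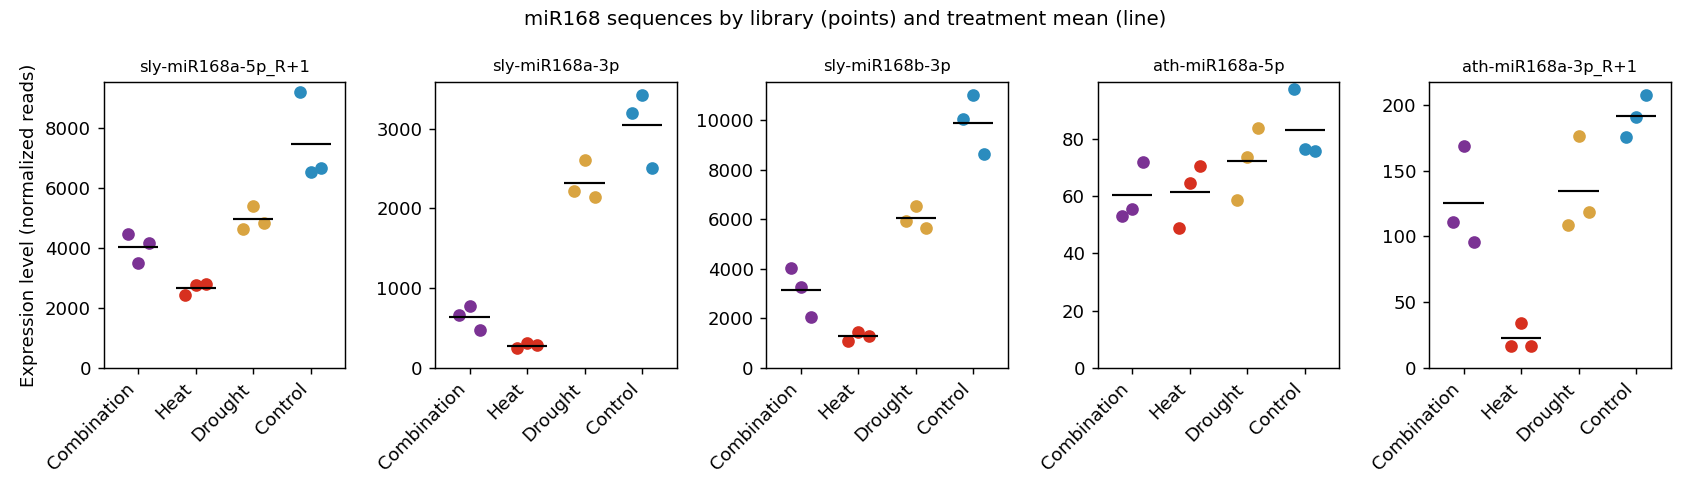
Normalized reads (vertical axis, linear, from 0) of 5 miR168 sequences in the 3 libraries (points) and their mean (line) at combination, heat, drought and control. Heat is the lowest treatment for the 3 abundant sequences and for ath-miR168a-3p_R+1, where its mean is 22.4 reads, while ath-miR168a-5p stays between 49.0 and 97.5 reads, its drought libraries overlapping with those of each other treatment.

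For the guide sly-miR168a-5p_R+1, normalized reads were 2416, 2767 and 2803 at heat, against 9174, 6533 and 6653 at control. At combination they were 4460, 3487 and 4154, and at drought 4616, 5386 and 4830. The 4 treatments did not overlap, in the order heat, combination, drought and control from low to high. Relative to control, the guide fell by 1.47 on the log2 scale at heat (SE 0.18, limma adjusted p = 4.76e-05) and fell by 0.88 at combination (SE 0.18, limma adjusted p = 0.00653). The neighbours in that order were not separated by the test, with a log2 difference of 0.60 for combination vs heat (limma adjusted p = 0.0696), -0.30 for combination vs drought (limma adjusted p = 0.32) and -0.58 for drought vs control (limma adjusted p = 0.322).

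The passenger sly-miR168a-3p fell most. It had 243.3, 306.2 and 280.1 normalized reads at heat, against 3197, 3421 and 2509 at control. At combination it had 661.5, 779.4 and 475.5, and at drought 2218, 2605 and 2136. The heat libraries were the lowest, the combination libraries lay above all of them, and both stood far under the 26 °C libraries. Its level at heat was 10.9-fold lower than at control (log2 -3.45, SE 0.22, limma adjusted p = 1.09e-07), and at combination 4.81-fold lower (log2 -2.27, SE 0.22, limma adjusted p = 1.37e-05).

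The passenger sly-miR168b-3p had 1074, 1437 and 1289 normalized reads at heat, against 10054, 11034 and 8637 at control. At combination it had 4041, 3266 and 2056, and at drought 5941, 6548 and 5661. The treatments again did not overlap, and combination replicate 3 was the lowest of its group. Relative to control this sequence was 7.83-fold lower at heat (log2 -2.97, SE 0.23, limma adjusted p = 8.17e-07) and 3.28-fold lower at combination (log2 -1.71, SE 0.23, limma adjusted p = 0.000252).

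The rarer forms followed in part. The form ath-miR168a-3p_R+1 had 16.3, 34.2 and 16.7 normalized reads at heat, against 176.1, 191.4 and 207.96 at control. At combination it had 111.3, 168.9 and 95.6, which overlapped with its 109.1, 176.7 and 118.8 at drought. At heat it fell by 3.12 on the log2 scale (SE 0.35, limma adjusted p = 2e-05), whereas for combination vs control the log2 difference was -0.65 (SE 0.35, limma adjusted p = 0.289). The guide form ath-miR168a-5p was between 49.0 and 72.1 in the 38 °C libraries and between 58.8 and 97.5 in the 26 °C libraries, with its combination and heat libraries below its control libraries, and passed the test in none of the 8 comparisons. The form of 24 nt was lower at 38 °C than at 26 °C (log2 -1.16, SE 0.34, limma adjusted p = 0.0274), and this call was lost in 6 of the 12 fits without 1 library. The form named 1ss20AT had 24.0, 37.3 and 13.04 at combination and was at 0 in 2 heat libraries and 1 drought library. It reached 10 normalized reads in 4 libraries, of which 3 were combination libraries, and passed no test.

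Counted over the family, 4 of 7 sequences were lower at heat than at control and none was higher, where 12.6% of the 419 sequences tested were called lower. The median log2 difference was -2.42 over the 7, which is the value of the form named 1ss20AT, and -2.22 over the 6 others, against 0.14 over all sequences tested. At combination 3 of 7 were lower than control, where 9.31% of all were called lower, and the median was -0.88 over the 7 and -1.12 without the form named 1ss20AT, against -0.04 over all. For heat vs drought 4 of 7 were lower (11.2% of all called lower), and for combination vs drought 2 of 7 were lower (7.4% of all called lower). For 38 °C vs 26 °C over both water supplies, 5 of 7 were lower (12.9% of all called lower). For drought vs control limma called 0 of 7 and 0 of 419 sequences (0.0%), and an unadjusted p under 0.05 was found for 34 of the 419 and 2 of the 7. These comparisons share the control or drought libraries. The 7 members include near-identical variants of the same strands, so counts out of 7, here and below, are not counts of independent sequences.

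Water supply changed the size of the heat response. The interaction is the log2 difference combination vs drought minus that of heat vs control. For a sequence that fell at heat, a positive value means a smaller fall, or no fall, when water was withheld. For the guide sly-miR168a-5p_R+1 it was 1.17 (SE 0.25, limma adjusted p = 0.0132), a call that was lost with no mean-variance trend (limma adjusted p = 0.0826) and without drought replicate 3 (0.0513). It was also positive for sly-miR168a-3p (1.57, SE 0.30, limma adjusted p = 0.00728) and sly-miR168b-3p (1.96, SE 0.33, limma adjusted p = 0.00299). The value was largest among the called forms for ath-miR168a-3p_R+1 (3.01, SE 0.49, limma adjusted p = 0.00261). Thus 4 of 7 members passed, where 5.01% of the 419 sequences tested were called in either direction and the same 5.01% with a positive interaction. The median over all tested sequences was -0.13 with the deposited scaling and 0.01 after trimmed mean scaling, and 4 members kept a positive call under both.

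**Figure D2:**
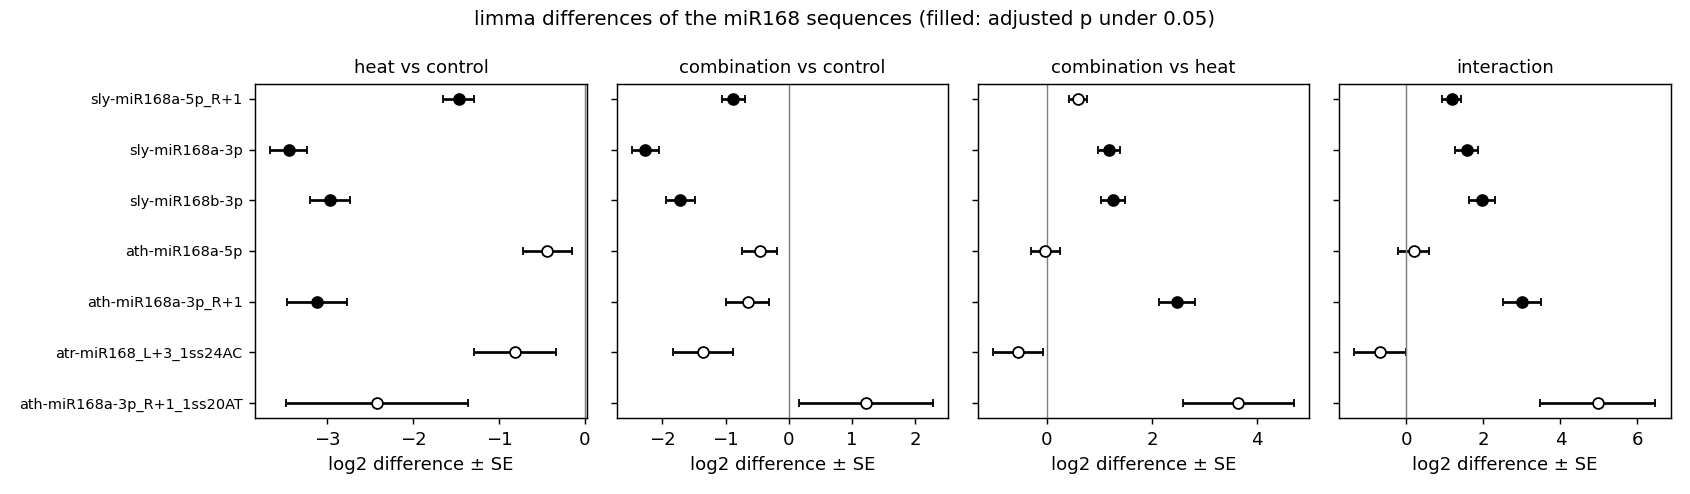
log2 differences (horizontal axis, with SE from limma) of the 7 miR168 sequences for heat vs control, combination vs control, combination vs heat and the interaction of heat and drought. Filled points passed an adjusted p of 0.05: 4 at heat vs control and 3 at combination vs control, all left of 0, and 3 at combination vs heat and 4 for the interaction, all right of 0.

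Directly between the treatments at 38 °C, 3 of 7 sequences were higher at combination than at heat, where 6.21% of all sequences were called higher. These were the passengers sly-miR168a-3p (2.27-fold, limma adjusted p = 0.00531), sly-miR168b-3p (2.39-fold, limma adjusted p = 0.00531) and ath-miR168a-3p_R+1 (5.55-fold, limma adjusted p = 0.000593). With the 6 libraries of these treatments alone in the fit, 0 of 7 passed, with adjusted p between 0.0558 and 0.0928 for the 3 passengers and the same fold changes.

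The balance between the strands moved with temperature. The 3p forms made up 51.7%, 54.5% and 38.4% of miR168 reads at combination and 35.0%, 38.5% and 35.4% at heat. They made up 63.8%, 63.0% and 61.6% at drought and 59.1%, 68.9% and 62.7% at control. Thus, among the listed forms, the passenger was the more abundant strand in every 26 °C library and the less abundant one in every heat library. Combination was split, with replicate 3 inside the range of heat. The mean share was 42.3% ± 8.6 at 38 °C and 63.2% ± 3.2 at 26 °C (SD, n = 6 each), a difference of -20.9 percentage points (exact permutation test, two-sided, p = 0.00216, the smallest that 6 against 6 allows, 0.0152 after adjustment over 7 comparisons). With 3 libraries against 3 the smallest p is 0.1, which heat vs control and combination vs control both gave (exact permutation tests, means 36.3% and 48.2% against 63.6%). For drought vs control the shares were 62.8% and 63.6% (exact permutation p = 0.9).

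The guide is shared by both hairpins, so the ratio of sly-miR168a-3p to sly-miR168a-5p_R+1 is not that of a single duplex. It averaged 0.162 ± 0.056 at combination, 0.104 ± 0.006 at heat, 0.469 ± 0.023 at drought and 0.416 ± 0.094 at control (SD, n = 3 each). This ratio fell by 1.98 on the log2 scale at heat (SE 0.26, limma adjusted p = 5.88e-05 over 32 strand pairs) and fell by 1.39 at combination (SE 0.26, limma adjusted p = 0.000926). A lower ratio was not particular to miR168, since 18.8% of the 32 pairs were called lower for heat vs control and 21.9% for combination vs control. These shares include the sly-miR168a pair and, at heat, the pair of ath-miR168a forms. Among those 32 pairs the sly-miR168a pair was the 4th lowest at heat and the 5th lowest at combination. The ath-miR168a pair was the lowest at heat (log2 -2.68, limma adjusted p = 6.69e-05) and the 13th lowest at combination (-0.19, 0.742). Its forms were paired by name only, and its 3p form is sly-miR168b-3p with 1 base added. Its ratio is therefore not that of a single duplex either. The interaction was 0.39 for the sly-miR168a pair (SE 0.37, limma adjusted p = 0.408), whereas the pair of ath-miR168a forms had 2.82 (SE 0.51, limma adjusted p = 0.00151), where 12.5% of pairs were called with a positive interaction.

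For sly-miR168b-3p no 5p sequence of the same name was listed, so it was set against sly-miR168a-5p_R+1, a pair added after the values were seen. Its ratio averaged 0.779 ± 0.247 at combination, 0.474 ± 0.040 at heat, 1.22 ± 0.06 at drought and 1.36 ± 0.30 at control (SD, n = 3 each). It was 2.83-fold lower at heat (SE 0.26 on the log2 scale, limma adjusted p = 0.000388) and fell by 0.84 on the log2 scale at combination (SE 0.26, limma adjusted p = 0.0251). Its interaction was 0.79 (SE 0.37, limma adjusted p = 0.101). The call for combination did not hold without combination replicate 3 (log2 -0.54, limma adjusted p = 0.0694), without control replicate 2 (-0.67, 0.0931), without control replicate 3 (-0.86, 0.0594) or with only the 2 groups in the fit (-0.84, 0.101).

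The passengers of the 2 hairpins did not keep a fixed ratio. Reads of sly-miR168b-3p per read of sly-miR168a-3p were 6.11, 4.19 and 4.32 at combination and 4.41, 4.69 and 4.60 at heat. They were 2.68, 2.51 and 2.65 at drought and 3.14, 3.23 and 3.44 at control. All 38 °C libraries were above all 26 °C libraries, and drought lay below control. The mean was 4.72 ± 0.70 at 38 °C and 2.94 ± 0.38 at 26 °C (SD, n = 6 each). The ratio was looked at after the values were seen and was not tested.

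**Figure D3:**
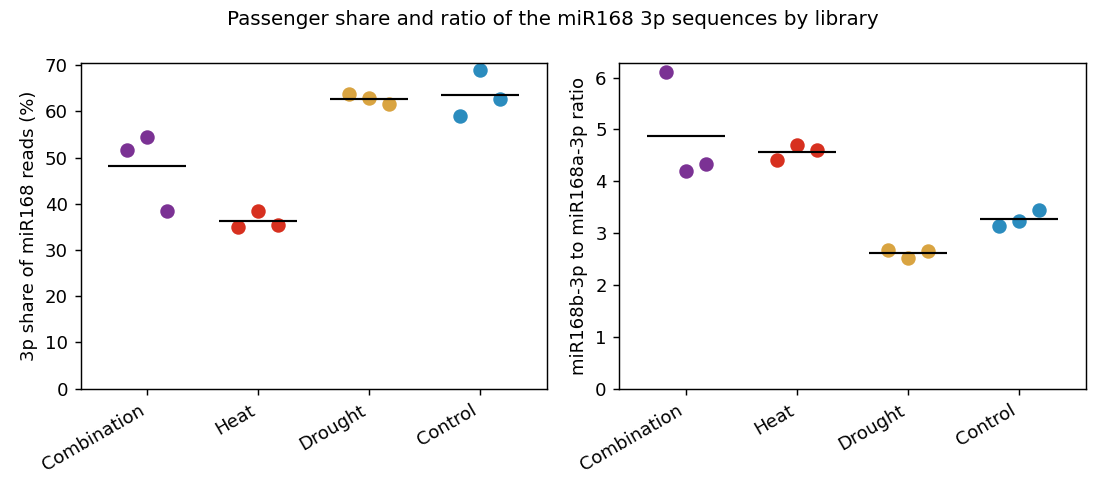
Share of 3p reads among all miR168 reads in percent (left) and ratio of sly-miR168b-3p to sly-miR168a-3p (right), both from 0, for the 3 libraries (points) and their mean (line) of each treatment. The share is 35.0% to 54.5% at 38 °C and 59.1% to 68.9% at 26 °C, and the ratio is 4.19 to 6.11 at 38 °C and 2.51 to 3.44 at 26 °C.

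In the degradome, guide sequences were assigned to sites on 2 AGO1 transcripts and passengers to 2 sites with almost no reads. The site on AGO1 (Solyc06g072300.3.1) was assigned to sly-miR168a-5p_R+1 and ath-miR168a-5p, and that on AGO1B (Solyc03g098280.3.1) to ath-miR168a-5p alone. Both were listed at all 4 treatments. The file gives them the symbols AGO1 and AGO1B but the description of a beta-glucosidase, and the symbols are used here. RefSeq has AGO1 on chromosome 6 and AGO1B on chromosome 3. Passenger sites were on KIN7C (Solyc01g110380.3.1), with 1 read in heat replicate 1, and on guaA (Solyc03g116880.3.1), with 2 reads in combination replicate 1.

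At the AGO1 site the reads recovered from the normalized values were 43, 36 and 46 at combination and 50, 36 and 208 at heat. They were 144, 52 and 124 at drought and 56, 56 and 56 at control. Heat replicate 3 alone held most reads of its group, and the other heat libraries had fewer reads than the control libraries before scaling. The listed sites together had 1407 to 3884 reads at 38 °C and 5258 to 7498 at 26 °C, and this lower total moves with temperature, so the AGO1 values depend on the scaling. As a share of listed reads, AGO1 had 2.41%, 1.56% and 3.27% at combination and 1.87%, 1.51% and 5.36% at heat. It had 2.27%, 0.719% and 1.65% at drought and 0.984%, 0.849% and 1.07% at control.

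After trimmed mean scaling, the AGO1 site had a log2 difference of 1.40 for heat vs control (SE 0.51, limma adjusted p = 0.0529) and 0.85 for combination vs control (SE 0.51, limma adjusted p = 0.272). Without heat replicate 3 the value for heat was 0.98 (limma adjusted p = 0.262). For 38 °C vs 26 °C it was 0.92 (SE 0.36, limma adjusted p = 0.0545), but -0.29 on the values as deposited, on which the value for combination vs control was also -0.29. The median over the 149 sites tested was -0.44 for 38 °C vs 26 °C after trimmed mean scaling and -1.56 on the values as deposited. Of the 149 sites, 0.0% were called for drought vs control, 19.5% for heat vs control, 21.5% for combination vs control, 21.5% for heat vs drought, 18.8% for combination vs drought, 5.37% for combination vs heat, 1.34% for the interaction and 32.2% for 38 °C vs 26 °C. Of the 2 miR168 sites tested limma called 0 in these 8 comparisons, and at an unadjusted p under 0.05 it was 1 of 2 sites for heat vs control, where 36.9% of the 149 sites passed that threshold, and 1 of 2 for 38 °C vs 26 °C, where 40.3% did. Over the alternatives tried, the limma adjusted p of the AGO1 site for heat vs control ranged between 0.0285 and 0.593, on both sides of the threshold.

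The AGO1B site had fewer reads, with 13, 11 and 2 at combination and 2, 0 and 13 at heat. It had 8, 30 and 20 at drought and 5, 15 and 15 at control. The treatments overlapped, and the log2 difference was -1.13 for heat vs control (SE 0.92, limma adjusted p = 0.407) and 0.59 for combination vs control (SE 0.92, limma adjusted p = 0.673).

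**Figure D4:**
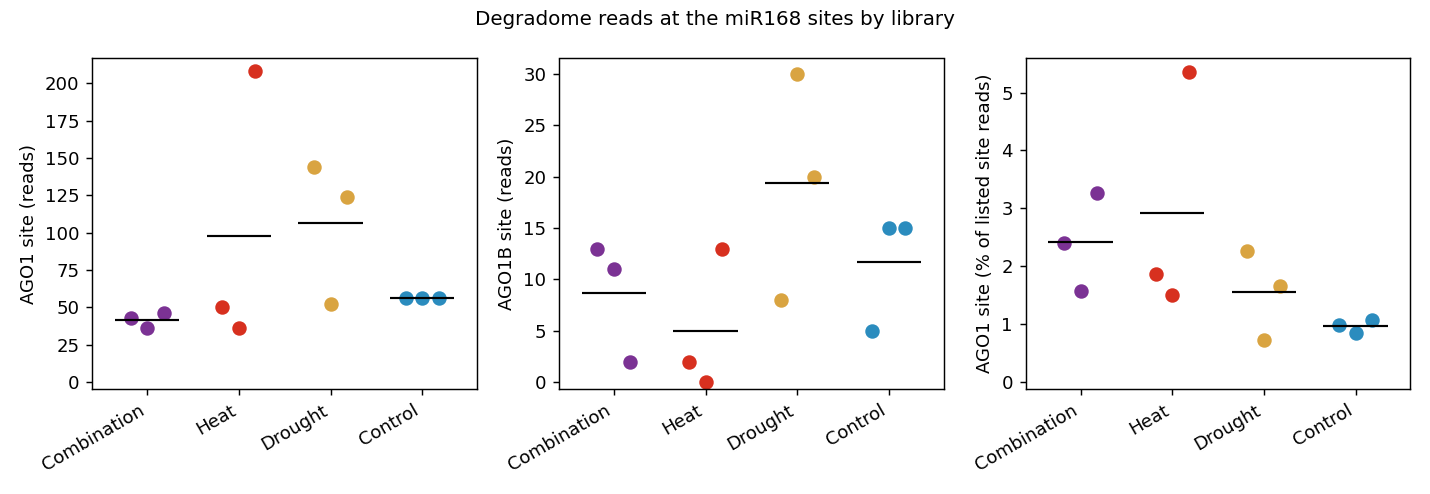
Degradome reads at the AGO1 site (left) and the AGO1B site (middle), and AGO1 reads in percent of all listed site reads (right), for the 3 libraries (points) and their mean (line) at combination, heat, drought and control. Heat replicate 3 stands apart at 208 reads and 5.36%, and the 3 control libraries have 56 reads each.

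The other miRNAs of the small RNA pathway are miR162, which cuts the mRNA of DICER-LIKE1 (DCL1, the enzyme that makes miRNAs), and miR403, which cuts that of AGO2. Of the 14 sequences tested from the 3 families, miR168 included, 1 was higher and 6 were lower at heat than at control, and 2 were higher and 6 lower at combination than at control, where 15.0% and 12.6% of all sequences were called in either direction. Of those called lower, 4 at heat and 3 at combination were the miR168 sequences counted above. Outside miR168, the called sequence that was higher was lus-miR162a_R+2, with 27.5, 28.3 and 23.6 normalized reads at heat, against 0, 6.38 and 0 at control (limma adjusted p = 0.00672). It passed the filter through its 38 °C libraries. At the other end, stu-miR162a-5p fell by 3.16 on the log2 scale at heat (SE 0.22, limma adjusted p = 2.47e-07) and sly-miR403-5p_R-1 fell by 2.38 (SE 0.28, limma adjusted p = 3.85e-05). Neither of these 5p strands was assigned to the DCL1 or AGO2 site. The DCL1 site was assigned to sly-miR162, ptc-miR162a_R+1 and lus-miR162a_R+2. The abundant sly-miR162 had 31274 ± 4726 normalized reads at heat and 29532 ± 3398 at control (SD, n = 3 each). The rarer ptc-miR162a_R+1 was lower at combination than at control (log2 -1.12, SE 0.30, limma adjusted p = 0.0252). For heat vs control it was not called (-0.87, SE 0.30, limma adjusted p = 0.0791). The strand sly-miR403-3p, which is assigned to AGO2, was higher at combination than at control (1.82-fold, limma adjusted p = 0.0103). In the degradome the normalized values of the AGO2 site as deposited were 21829, 23436 and 12074 at heat, against 9178, 22771 and 10450 at control, so that the groups overlapped. After trimmed mean scaling its log2 difference was 1.40 (SE 0.43, limma adjusted p = 0.024), against 0.50 on the values as deposited (limma adjusted p = 0.411). The call was also lost without control replicate 1 (limma adjusted p = 0.0963), control replicate 3 (0.133), heat replicate 1 (0.107) or heat replicate 2 (0.16). The DCL1 site passed in no comparison.

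Outside the family, the sequences whose log2 levels followed sly-miR168a-5p_R+1 most closely over the 12 libraries were stu-miR398b-3p_L-1R+1_1ss15CT (Pearson r = 0.933), stu-miR6024-5p_R-1_1ss20AG (0.928), sly-miR482e-5p (0.925), sly-miR482d-5p_R-3 (0.916) and sly-MIR159-p5 (0.911). For sly-miR168b-3p they were sly-miR482e-5p (0.976), stu-miR6024-5p_R-1_1ss20AG (0.968), sly-MIR159-p5 (0.963), stu-miR398a-5p (0.958) and sly-miR482d-5p_R-3 (0.957). All points share the 4 treatments and the scaling of each library, so these values are a description.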

How the data were processed

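Small RNA and degradome libraries of tomato leaf were analysed, 12 of each, of 36 in the series, and circular RNA libraries were not used here. The authors deposited normalized reads (a signal: reads times 1 factor per library, some split between sequences). They had removed reads matching Rfam, repeats and mRNA, matched the rest to miRBase, and found cleavage sites with CleaveLand and Targetfinder on ITAG transcripts. Degradome reads were recovered with the largest step that left at least 90% of values whole within 0.01.

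Small RNA values were tested as log2(normalized reads + 1) with limma 3.58.1 (R 4.3.3, mean-variance trend, 12 libraries, Benjamini-Hochberg per comparison) over the 419 sequences that reached 10 normalized reads in 3 or more libraries. Fold changes are on this scale, which makes changes of rare sequences look smaller. Strand ratios used the log2 difference of 3p and 5p over 32 pairs. Sites were tested after trimmed mean scaling over 149 sites with at least 10 reads in 1 library. A call is an adjusted p under 0.05. Shares were compared with exact permutation tests (scipy 1.17.1). The fits were tested on simulated data. Groups followed the GEO labels. The number of reads behind a small RNA value in 1 library was not recovered, so that no counting interval is given.

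All miR168 sequences and sites are named, with miR162, miR403, their sites and the 5 sequences nearest by Pearson r. The members and lists were chosen with earlier results of these data known. Alternatives were other scalings, pseudocounts and filters, a replicate block and leaving out each library.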

Additional observations from a re-analysis of the deposited data

Results flagged for a closer look

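The response to heat differed with the water supply, by the interaction term of limma, for 4 of 7 miR168 sequences and 1 strand ratio. Of all tested, 5.01% of 419 sequences and 12.5% of 32 strand pairs were called with a positive interaction. The log2 interaction was 1.17 for sly-miR168a-5p_R+1 (limma adjusted p = 0.0132, but 0.0826 with no trend and 0.0513 without drought replicate 3), 1.57 for sly-miR168a-3p, 1.96 for sly-miR168b-3p and 3.01 for ath-miR168a-3p_R+1. For the 3p to 5p ratio of the ath-miR168a forms, which are rare and were paired by name only, it was 2.82. The ratios of the abundant passengers to sly-miR168a-5p_R+1 were not called, with 0.39 for sly-miR168a-3p (limma adjusted p = 0.408) and 0.79 for sly-miR168b-3p (0.101). Each called value is positive. For the 4 sequences the fall at 38 °C was smaller in plants without water. There, for combination vs drought, neither sly-miR168a-5p_R+1 (log2 -0.30, limma adjusted p = 0.32) nor ath-miR168a-3p_R+1 (-0.12, 0.88) was called lower. The ath-miR168a ratio fell only with water, with log2 -2.68 for heat vs control and 0.14 for combination vs drought (limma adjusted p = 0.784). A positive interaction was not particular to miR168, since sly-miR403-5p_R-1 had 1.89 (SE 0.40, limma adjusted p = 0.0117). The term uses all 12 libraries, and no cause was tested.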

How the results depend on the processing

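The scalings, pseudocounts, filters and fits tried kept the direction of every called miR168 sequence and strand ratio. The number of sequences called for heat vs control was 4 in all of them. For combination vs heat it was 0 with only the 2 groups compared, against 3. That fit has fewer libraries, and its SE was larger for each of the 3 passengers. The SE was 0.230 against 0.215 for sly-miR168a-3p, 0.276 against 0.232 for sly-miR168b-3p and 0.426 against 0.345 for ath-miR168a-3p_R+1. Why the calls were lost was not tested. The interaction of sly-miR168a-5p_R+1 lost its call with no trend (limma adjusted p = 0.0826) and without drought replicate 3 (limma adjusted p = 0.0513). Leaving out 1 library gave 1 to 3 called sequences for combination vs drought (1 without drought replicate 2), 5 to 8 of the small RNA pathway for combination vs control (5 without control replicate 3 or combination replicate 3) and 3 to 7 for combination vs drought (3 without drought replicate 2). The difference of the 3p share stayed between -23.4 and -19.5 percentage points. For the degradome sites, 1 site (AGO1) was called for heat vs control with a pseudocount of 5 and with 10 reads in 3 libraries, and 1 for 38 °C vs 26 °C with equal totals and with 10 reads in 3 libraries. Leaving out 1 library gave 0 to 1 in both comparisons. On the values as deposited the AGO1 site turned to -0.29 for combination vs control (limma adjusted p = 0.799) and -0.29 for 38 °C vs 26 °C (limma adjusted p = 0.647). The cause was not tested. The median over all sequences moved by over 0.1 with equal totals for drought vs control, to 0.13, against 0.03.

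The deviations of same-numbered libraries correlated between -0.38 and 0.38 in the small RNA data and between -0.24 and 0.25 in the degradome. Libraries with different numbers were not compared, so these values cannot decide whether replicate numbers pair the libraries. With the replicate block, 4 sequences were called for heat vs control and 4 for the interaction, and no call on miR168 changed. The planned edgeR test on degradome reads was not run, because too few values were whole reads.

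Limits are the 3 libraries per treatment, the depth of single small RNA libraries, which was not recovered, and the low site totals at 38 °C. Guide reads cannot be split between the hairpins.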
